A study of Tupaia belangeri chinensis with 36 samples.

Results

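The imprinted DLK1-DIO3 region of mammals holds a large cluster of microRNA (miRNA) genes, and the levels of its miRNAs were examined in the testis and epididymis of the Chinese tree shrew, a small mammal related to primates. Members were the entries of the deposited miRNA table that carried a mouse name and a number of the region's mouse miRNAs, with any letter or arm. There were 53 such entries among 1210, and 33 of the 47 numbers had at least 1 entry. Samples were of testis and of the first and last segments of the epididymis, its head (caput) and tail (cauda), from sexually mature males of 1.5 to 2 years, in a reproductive season (R, April 2024) and a non-reproductive season (NR, December 2023). The 6 groups were TESTIS-R, TESTIS-NR, CAPUT-R, CAPUT-NR, CAUDA-R and CAUDA-NR, each with 3 biological replicates sequenced as small RNA. The labels gave no genotype, drug or surgery for any group, and each season was collected at 1 time, so season and collection date cannot be told apart.

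In the mouse, protein-coding Dlk1, Rtl1 and Dio3 are expressed from the paternally inherited chromosome, and a chain of noncoding RNAs, Meg3, Rian and Mirg, from the maternally inherited one. The miRNAs are cut from these maternal transcripts. miR-127, miR-136, miR-431 and miR-433 lie antisense to Rtl1, a retrotransposon-derived gene, and in the mouse direct the cleavage of its mRNA, while the run from miR-379 to miR-410 lies within Mirg. Members of the cluster are best known from brain, placenta and skeletal muscle. Allele of origin was not measured here, so imprinting itself was not examined.

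By their place in the mouse, 9 members belonged between Meg3 and Rtl1, 1 to Rian and 43 to the Mirg run. The entries for miR-299a and miR-299b were close to copies of each other. Their 3p arms had equal counts in 10 of 16 libraries and differed by at most 3 counts in the rest, and their 5p arms had equal counts in 16 of 16, so that 51 members were distinct measurements. A level of at least 10 CPM (counts per 1000000) in some group was reached by 24 members and of at least 100 by 7. Another 15 peaked between 1 and 10 CPM, and 14 stayed under 1 CPM in every group, with 2 to 56 counts over 16 libraries. miR-370-3p, the member from Rian, had 2 counts in all. Besides the members, 22 entries carried one of the numbers under a prefix that marks new entries, and some of their reads may come from the same hairpins.

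The RefSeq annotation of the tree shrew assembly TupChi_1.0, used for gene names and order, listed 177 miRNA hairpins. Of these, 11 carried a number of the cluster, and 11 of the 11 lay between DLK1 and DIO3. In order from the DLK1 side, after RTL1, they were MIR127 and MIR136, then MIR411, MIR376C, MIR376A-1, MIR376B, MIR376A-2, MIR381, MIR539, MIR409 and MIR369. DIO3 came later, after other annotated genes, and distances were not taken from this order. A block of 18 snoRNA genes stood between MIR136 and MIR411. The annotation thus places these 11 hairpins where the label of the cluster says; the other members were not placed here.

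The columns CAPUT-NR 2 and TESTIS-NR 2 were averages, not libraries: each equalled the rounded mean of replicates 1 and 3 within 0.5 counts at 100% of entries, against at most 5.35% of the entries with a count in a measured column. They were left out, so n was 2 in those groups, and 16 libraries with 2166152 to 14756858 miRNA counts remained. Epithelial miRNAs (miR-200a, miR-200b, miR-200c, miR-141 and miR-429, 10 entries) summed to 159 to 3450.5 CPM in the testis, 118810 to 153125 in the caput and 64952 to 94100.3 in the cauda. Of these entries 10 of 10 were called lower in the testis than in either segment and 9 of 10 higher in the caput than in the cauda, and miR-429-5p was at 0 in TESTIS-R. Germ cell and ciliated cell miRNAs (miR-34b, miR-34c and miR-449, 6 entries) summed to 4306 to 6005 CPM in TESTIS-R, to 331 CPM in TESTIS-NR 1 and to 3909 CPM in TESTIS-NR 3, with miR-449b at 0 in both testis groups. By this list TESTIS-NR 3 stood nearer to the TESTIS-R libraries. For the skeletal muscle miRNAs listed below it stood farther, at 874 CPM against 159 CPM in TESTIS-NR 1 and 66.0 to 76.6 CPM in TESTIS-R. The same held for hepatic miR-122-5p, at 150.3 CPM against 11.6 CPM in TESTIS-NR 1 and 19.8 to 26.6 CPM in TESTIS-R. The season fit of the testis was also run without TESTIS-NR 3.

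Summed over the cluster, the level was highest in the testis, intermediate in the cauda and lowest in the caput, and it was close between seasons. The 53 members came to 1722, 2053 and 2311 CPM in TESTIS-R and to 2099.5 and 2077 CPM in TESTIS-NR. In the caput they came to 461, 674.8 and 490.0 CPM in R and to 576 and 517 CPM in NR. In the cauda they came to 1404, 835 and 1190.0 CPM in R and to 1188, 1301 and 1177 CPM in NR. The ranges of the tissues did not overlap. The mean of the testis was 3.78 times that of the caput and 1.74 times that of the cauda, and that of the caput was 0.460 times that of the cauda, each with the seasons weighted equally.

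**Figure D1:**
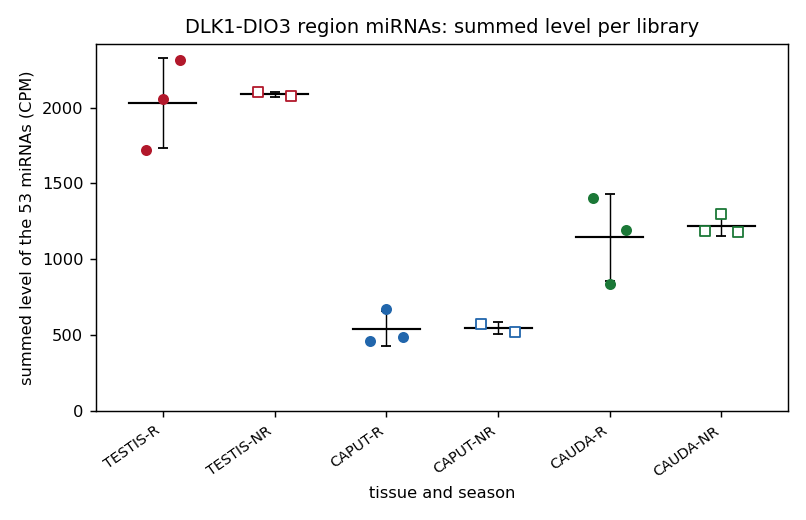
Summed level of the 53 DLK1-DIO3 region miRNAs in CPM (vertical axis, linear from 0) in each of 16 libraries by tissue and season. Filled circles are R libraries, open squares NR libraries, and bars give the mean ± SD; the 5 testis libraries lie between 1722 and 2311 CPM, the 5 caput libraries between 461 and 674.8 CPM and the 6 cauda libraries between 835 and 1404 CPM.

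In season, the R mean was 0.971 times the NR mean in the testis, 0.991 times in the caput and 0.935 times in the cauda, and the R and NR libraries overlapped in each. Scaled by library totals, the log2 ratio of R to NR in the testis was 0.24 in place of -0.04, so its direction depended on the scaling. The cluster was a small part of each library, 0.0274% of the miRNA counts in CAPUT-R 1 (95% Wilson interval 0.0266% to 0.0283%) and 0.308% in TESTIS-R 3 (0.300% to 0.315%), the extremes. These intervals, and the floors and ratios below, cover counting error only. These are bulk tissues, so a larger share of cells that carry a miRNA and more of it per cell cannot be told apart. The marker sums above moved with tissue too, and so did smooth muscle miRNAs (miR-143 and miR-145, 4 entries), at 3980 to 9199 CPM in the testis, 6897 to 10894 CPM in the caput and 21634 to 38987 CPM in the cauda. All 4 were called lower in the testis and in the caput than in the cauda, and their part in these results was not tested. In the direction of the cluster, the hepatic miRNA miR-122-5p had 11.6 to 150.3 CPM in the testis, 2.26 to 8.77 in the caput and 2.27 to 4.24 in the cauda, and was called higher in the testis than in either segment. Other imprinted loci (miR-296, miR-298, miR-335, miR-483 and miR-675, 6 entries) went against the cluster. They summed to 16.7 to 42.3 CPM in the testis, 43.4 to 127.5 in the caput and 45.6 to 100.1 in the cauda. Of 3 tested, 1 was called lower in the testis than in the caput and 1 than in the cauda. Germ cell and ciliated cell miRNAs, with the testis sums above, summed to 413 to 855 CPM in the caput and 304 to 1221 CPM in the cauda. TESTIS-NR 1, at 331 CPM, lay below the caput range. Of the 5 entries tested, 3 were called higher in the testis than in the caput and 2 than in the cauda, with 0 lower. In the caput 1 was called higher than in the cauda. Leukocyte miRNAs (miR-142, miR-146a, miR-150, miR-155 and miR-223, 8 entries) summed to 417 to 1407 CPM in the testis, 1907 to 4144 CPM in the caput and 2104 to 10083 CPM in the cauda, with 4 of 6 called lower in the testis than in the caput and 5 of 7 lower than in the cauda. Neuronal miRNAs (miR-9, miR-124, miR-128, miR-129 and miR-138, 11 entries) summed to 532 to 1843 CPM in the testis. They summed to 1529 to 3055 CPM in the caput and 1253 to 1740 CPM in the cauda. Of 6 tested, 3 were called lower in the testis than in the caput and 2 than in the cauda, with 0 higher. The part of these miRNAs was not tested either.

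A few miRNAs made up most of the cluster. The 3 with the highest mean level, miR-136-5p, miR-411-5p and miR-127-3p, took 38.2% to 55.0% of the cluster's CPM in a library, and the 10 highest took 78.7% to 84.4%. By mean level with tissues weighted equally, miR-136-5p stood at 10.2% of the ranking of the 1210 entries from the top, miR-411-5p at 10.6% and miR-127-3p at 12.1%, and the tenth member, miR-299a-3p, at 19.1%.

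miR-136-5p, one of the miRNAs antisense to Rtl1, had 295, 574 and 716 CPM in TESTIS-R and 212 and 268 CPM in TESTIS-NR. In the caput it had 37.0, 75.3 and 72.9 CPM in R and 58.6 and 75.1 CPM in NR, and in the cauda 448, 102 and 250.4 CPM in R and 173, 269.8 and 180.1 CPM in NR. The libraries of TESTIS-R and of CAUDA-R were far apart, and the caput stayed below every library of the other tissues.

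miR-411-5p, from the start of the Mirg run, varied less between libraries. It had 355, 321 and 370.01 CPM in TESTIS-R and 369.6 and 352 CPM in TESTIS-NR. The caput libraries had 87.7, 114 and 88.5 CPM in R and 102 and 93.6 CPM in NR, and the cauda libraries 193, 145.3 and 213 CPM in R and 218, 198.9 and 201 CPM in NR. The tissues were separated without overlap and the seasons lay together within each.

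miR-127-3p, which in the mouse pairs perfectly with Rtl1, had 194, 169 and 183 CPM in TESTIS-R and 220.0 and 322 CPM in TESTIS-NR. It had 95.7, 115 and 75.0 CPM in CAPUT-R and 94.1 and 69.3 CPM in CAPUT-NR, against 72.8, 96.0 and 86.8 CPM in CAUDA-R and 124.1, 106 and 125.8 CPM in CAUDA-NR. The testis lay above both segments of the epididymis, and caput and cauda overlapped.

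The other members among the 10 highest were miR-379-5p, miR-369-3p, miR-134-5p, miR-382-5p, miR-431-5p, miR-136-3p and miR-299a-3p. miR-379-5p, which opens the Mirg run, spanned 113 to 226 CPM in the testis, 35.7 to 48.8 in the caput and 75.3 to 107 in the cauda, with no overlap. miR-134-5p, known in rat neurons as a regulator of dendritic spine size, spanned 64.5 to 118 CPM in the testis, 30.3 to 49.6 in the caput and 56.4 to 89.0 in the cauda. miR-382-5p spanned 83.3 to 143.7, 15.5 to 25.3 and 40.8 to 82.8 CPM in testis, caput and cauda, and miR-431-5p, also antisense to Rtl1, 57.9 to 108, 17.0 to 45.7 and 46.8 to 83.2 CPM. In these 3 the caput lay below both other tissues, and testis and cauda overlapped for miR-134-5p and miR-431-5p but not for miR-382-5p.

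Of the 24 members with at least 10 CPM in a group, 20 had their means in the order testis, cauda, caput, which the heatmap of levels shows down most of its rows. In 17 of the 24 the testis libraries lay above the caput libraries with no overlap, in 12 the cauda lay above the caput, and in 6 the testis lay above the cauda. Over all miRNAs that passed edgeR's filter on low counts, a set chosen by another rule, these shares were 14.2%, 8.6% and 11.4%. No share over all miRNAs is given for the order of means, so these counts describe the 24 members only. The exceptions to the order were miR-409-3p, miR-376a-3p and miR-376b-3p, with the cauda first and the caput last, and miR-376c-3p, with the cauda first and the testis last.

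**Figure D2:**
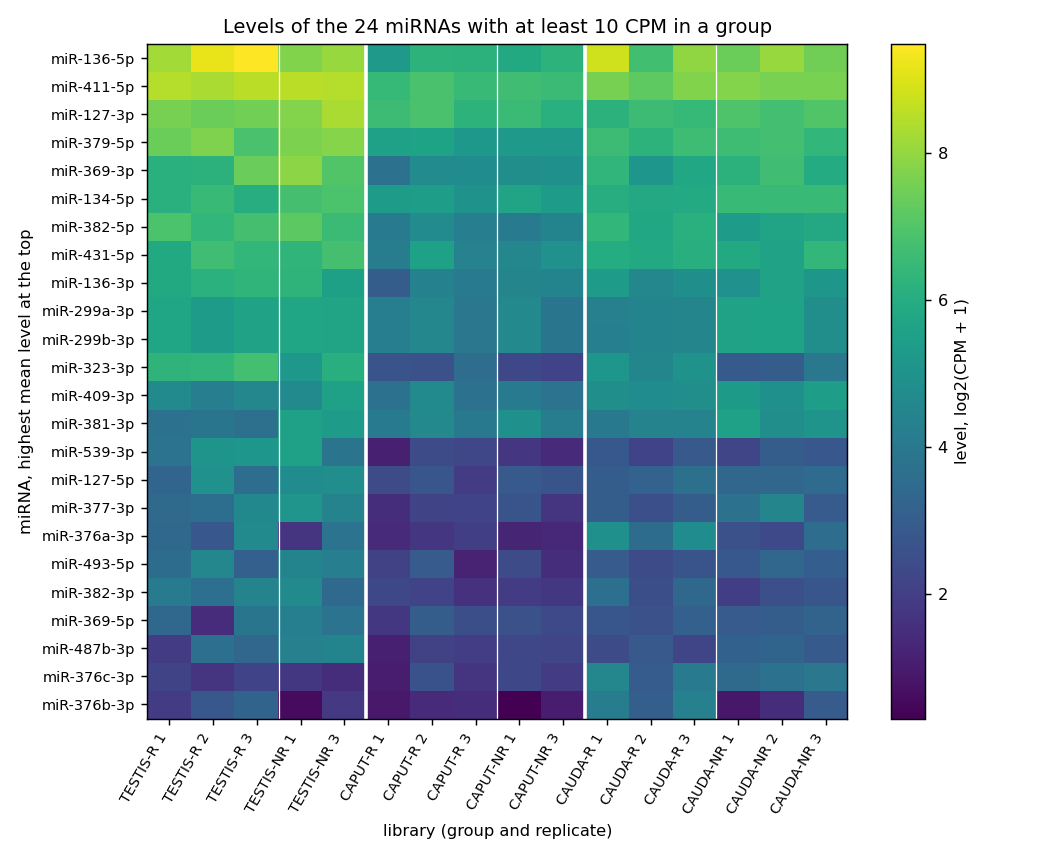
Levels, as log2(CPM + 1), of the 24 members with at least 10 CPM in some group (rows, highest mean at the top) in 16 libraries (columns, by tissue and season; thick white lines part tissues). Brighter cells mean higher levels: most rows are brightest in the testis and darkest in the caput, and the 3 rows of miR-376 3p arms have their brightest cell in CAUDA-R.

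Between testis and caput, which asks how the cluster differs between the organ that makes sperm and the segment that receives them, 22 members were higher in the testis and 0 lower. edgeR's filter on low counts let 31 members through, and the call was a Benjamini-Hochberg adjusted p under 0.05 over the 537 miRNAs tested, with season as a covariate. Over all of these miRNAs 23.8% were called higher in the testis and 23.6% lower. Members that reached the filter in the testis alone had to differ, so the count describes these members and is no test of the cluster. The median log2 difference was 2.10 over the 31 members and 0.07 over the 537, and 29 of the 31 were above 0. The groups did not overlap for 19 of the members higher in the testis, against 14.2% of all miRNAs.

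The widest difference from the caput among the called members was that of miR-543-3p, of the Mirg run, at 3.98 ± 0.94 on the log2 scale (edgeR adjusted p = 0.00765), but it had 2 to 15 counts in a testis library and 0 to 4 in a caput library. Among members of at least 10 CPM, miR-323-3p and miR-539-3p, both of the Mirg run, differed most. miR-323-3p had 75.7, 79.9 and 105 CPM in TESTIS-R and 36.2 and 67.7 CPM in TESTIS-NR, against 5.47, 4.996 and 11.1 CPM in CAPUT-R and 3.88 and 3.47 CPM in CAPUT-NR, which gave a log2 difference of 3.80 ± 0.37 (SE; edgeR adjusted p = 0.000135). The lowest testis library thus stood above 3 times the highest caput library. miR-539-3p averaged 27.8 ± 14.5 CPM in the testis (n = 5) and 2.66 ± 1.38 CPM in the caput (n = 5), with a log2 difference of 3.54 ± 0.61 (SE; edgeR adjusted p = 0.00179). For miR-136-5p, the most abundant member, the log2 difference was 2.72 ± 0.42 and for miR-377-3p 2.65 ± 0.48 (SE; edgeR adjusted p = 0.000946 and 0.00227).

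Both arms of miR-382 rose to a similar degree, with log2 differences of 2.63 ± 0.45 for the 3p and 2.63 ± 0.30 for the 5p arm (edgeR adjusted p = 0.00165 and 0.000248). miR-369-3p, which in human cells can act through AU-rich elements, differed by 2.56 ± 0.42 and miR-379-5p by 2.27 ± 0.27 (edgeR adjusted p = 0.00128 and 0.00027). From the group between Meg3 and Rtl1, miR-493-5p, miR-127-5p and miR-136-3p were higher in the testis by 2.27, 2.17 and 2.10 on the log2 scale (edgeR adjusted p = 0.0116, 0.00414 and 0.00276). miR-376a-3p was higher by 2.56 (edgeR adjusted p = 0.00896), though its libraries overlapped. The other 10 called were miR-411-5p, miR-127-3p, the 3p arms of miR-299a and miR-299b, miR-134-5p, miR-431-5p, miR-487b-3p, miR-380-5p, miR-376c-5p and miR-543-3p, with log2 differences of 1.24 to 3.98. Those that did not pass included miR-381-3p, at 24.9 ± 17.0 CPM in the testis and 20.4 ± 6.11 CPM in the caput, and miR-376c-3p, at 2.72 ± 0.759 and 3.02 ± 1.56 CPM. In the NR libraries alone, 2 against 2, 0 members and 0% of all miRNAs tested passed, and the same 12 named members had log2 differences of 1.67 to 4.06.

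Against the cauda, 14 of the 33 members that passed the filter were higher in the testis and 3 were lower, where 23.3% of the 553 miRNAs tested were called higher and 24.2% lower. The median log2 difference was 0.81 over the 33 and 0.03 over the 553, and 24 of the 33 were above 0. Here too, members that reached the filter in 1 tissue alone had to differ, so the counts describe these members only. The groups did not overlap for 6 members higher and 3 lower in the testis, against 11.4% and 22.1% of all miRNAs. miR-539-3p had 12.9, 32.1 and 33.98 CPM in TESTIS-R and 46.6 and 13.3 CPM in TESTIS-NR, against 6.09, 3.41 and 6.32 CPM in CAUDA-R and 3.72, 7.16 and 5.92 CPM in CAUDA-NR, with a log2 difference of 2.41 ± 0.45 (SE; edgeR adjusted p = 0.00166). Every testis library exceeded every cauda library, but the TESTIS-NR pair was wide apart.

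miR-323-3p also rose against the cauda, which had 33.9, 22.0 and 31.1 CPM in R and 6.44, 7.07 and 14.7 CPM in NR, by 1.95 ± 0.32 on the log2 scale (edgeR adjusted p = 0.000775). miR-127-3p was higher by 1.12 ± 0.19, miR-411-5p by 0.88 ± 0.18 and miR-379-5p by 1.02 ± 0.24 (edgeR adjusted p = 0.000962, 0.00241 and 0.00596). miR-382-3p, miR-493-5p, miR-127-5p, miR-377-3p, miR-369-3p, miR-136-3p and miR-382-5p were higher by 0.92 to 1.38, with edgeR adjusted p of 0.0118 to 0.0323. miR-299a-3p and its near copy were higher by 0.81 (edgeR adjusted p = 0.0375). miR-136-5p differed by 0.65 ± 0.37 and did not pass (edgeR adjusted p = 0.177). With the replicate number as a block 4 members were called in place of 17, where the calls over all miRNAs were 18.8% in place of 47.6%. In the R libraries alone 11 members and 48.5% of all miRNAs were called, and in the NR libraries alone 3 members and 29.9%.

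The members lower in the testis than in the cauda were miR-376c-3p and the 2 entries for the miR-299 5p arm. miR-376c-3p had 3.57, 2.22 and 3.47 CPM in TESTIS-R and 2.48 and 1.87 CPM in TESTIS-NR, against 22.2, 6.82 and 15.4 CPM in CAUDA-R and 10.2, 12.3 and 14.4 CPM in CAUDA-NR, with a log2 difference of -2.34 ± 0.39 (SE; edgeR adjusted p = 0.000798). No testis library reached the lowest cauda library. The miR-299a 5p arm had 1 count over the 5 testis libraries, against 23, 9 and 13 counts in CAUDA-R and 23, 36 and 20 counts in CAUDA-NR, a scaled ratio of 0.0190 with an exact 95% counting interval of 0.000478 to 0.108. Its 3p arm went the other way, past the threshold. The 5p arm, with 1 count in the testis, could pass the filter through the cauda alone and so had to come out lower. The opposite directions of the arms thus describe this hairpin and are no test. The 3p call was lost with a replicate block (edgeR adjusted p = 0.196), in the NR libraries alone (0.688), with no filter (0.162) and without CAUDA-R 2 (0.0706) or TESTIS-R 1 (0.0576). The 5p call was lost with a replicate block (edgeR adjusted p = 0.0645), and this arm was not tested in the R libraries alone.

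Between the segments of the epididymis, 19 of the 30 members that passed the filter were lower in the caput than in the cauda and 0 were higher, where 12.9% of the 535 miRNAs tested were called lower and 15.1% higher. All 30 had a log2 difference below 0, with a median of -1.14, against 0.04 over the 535. Members that reached the filter in the cauda alone had to differ, so these values describe the members and are no test of the cluster. The groups did not overlap for 14 of the members, lower in the caput, against 8.6% of all miRNAs. Without the library CAPUT-NR 1 the count was 11 in place of 19, with the replicate number as a block it was 6, and in the R or NR libraries alone it was 7 or 3. Over all miRNAs the calls were 18.3% without CAPUT-NR 1, 9.19% with the block, 17.4% in R and 10.7% in NR, in place of 28%. Skeletal muscle miRNAs (miR-1a, miR-133 and miR-206, 7 entries) moved with these members, and 5 of the 5 tested were called lower in the caput. They summed to 301 to 909.9 CPM in the caput and 3149.7 to 7549 CPM in the cauda. In the testis they went against most members: 2 of 4 tested were called lower than in the caput and 5 of 5 lower than in the cauda. Their part in the values of the cluster was not tested.

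Of the 12 members with the widest differences between the segments and at least 10 CPM, miR-379-5p was the one that passed under every alternative tried. It had 46.1, 48.8 and 35.7 CPM in CAPUT-R and 37.4 and 38.0 CPM in CAPUT-NR, against 94.9, 75.3 and 98.2 CPM in CAUDA-R and 99.4, 107 and 83.1 CPM in CAUDA-NR, with a log2 difference of -1.19 ± 0.16 (SE; edgeR adjusted p = 0.000478). miR-382-5p had 15.5, 25.3 and 17.98 CPM in CAPUT-R and 16.6 and 20.7 CPM in CAPUT-NR, against 82.8, 53.3 and 68.9 CPM in CAUDA-R and 40.8, 50.2 and 57.1 CPM in CAUDA-NR, with a log2 difference of -1.64 ± 0.23 (SE; edgeR adjusted p = 0.000601). In both, every caput library lay below every cauda library.

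miR-136-5p, miR-323-3p and miR-369-3p were lower in the caput, with log2 differences of -1.90, -1.74 and -1.44 (edgeR adjusted p = 0.00452, 0.00499 and 0.00526). miR-377-3p, miR-431-5p, miR-382-3p and miR-487b-3p were lower too, with log2 differences of -1.41 to -1.01, with edgeR adjusted p of 0.0156 to 0.0435. miR-134-5p, miR-411-5p, miR-409-3p, miR-127-5p and miR-136-3p passed too, with log2 differences of -1.003 to -0.82, and so did miR-380-5p and miR-376c-5p, which stayed under 10 CPM. The smallest differences were those of miR-127-3p, at -0.16 ± 0.20, and miR-381-3p, at -0.28 ± 0.26 (edgeR adjusted p = 0.618 and 0.48), and neither passed.

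**Figure D3:**
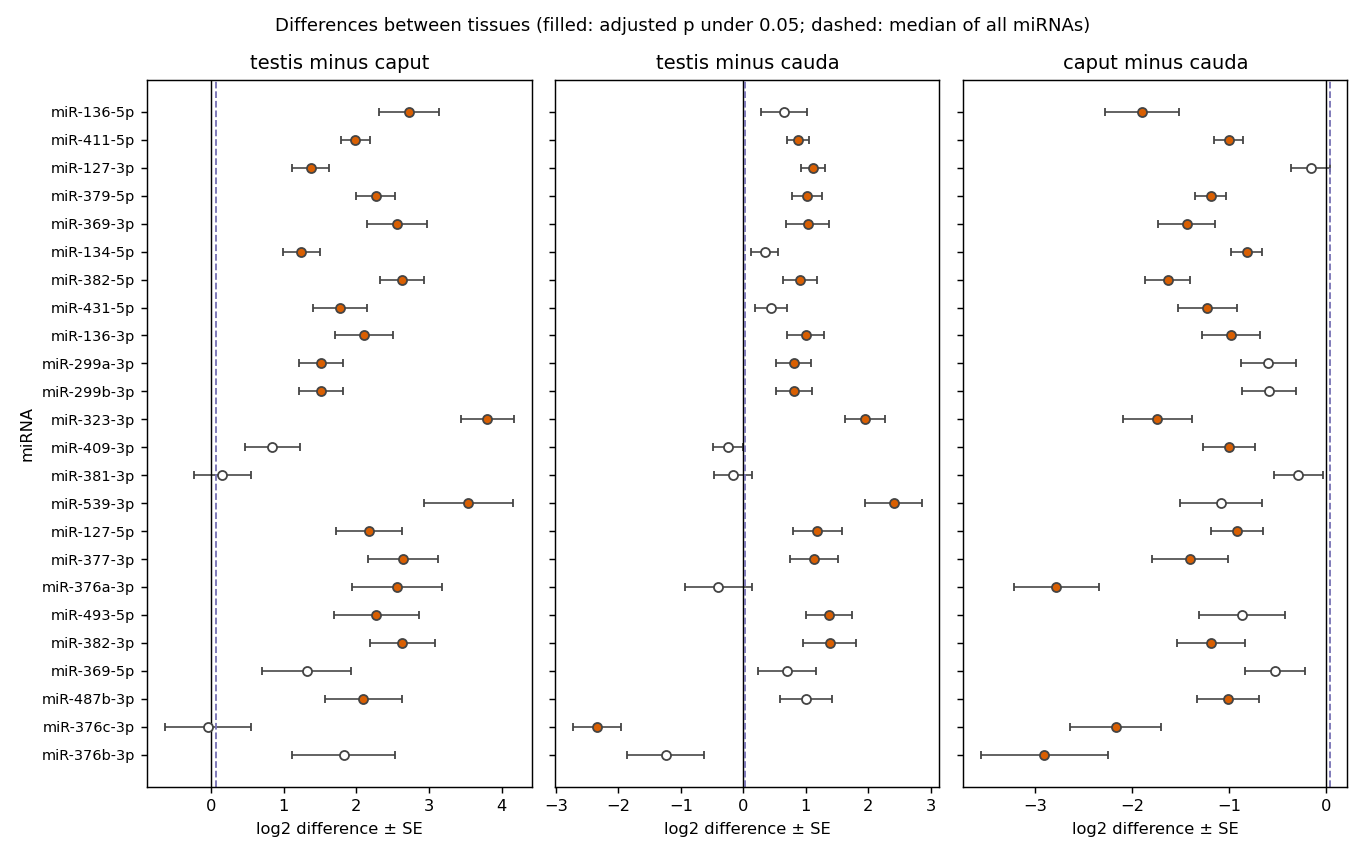
Log2 difference ± SE (horizontal axis) of each of the 24 members with at least 10 CPM in a group, for testis minus caput, testis minus cauda and caput minus cauda. Filled points passed an adjusted p of 0.05 in edgeR and dashed lines mark the median of all miRNAs tested: in the first panel most points lie well right of it, and in the last all lie left of it.

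Scaling by library totals in place of TMM gave all miRNAs tested a median log2 difference of 0.64 between testis and caput, 0.30 between testis and cauda and -0.33 between caput and cauda. The members' medians moved with it, to 2.60, 1.10 and -1.47, and stayed on the same side of the median of all miRNAs. The 3 tissue comparisons share their libraries and are not independent of one another.

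The 3p arms of miR-376a, miR-376b and miR-376c, miRNAs whose precursors are edited by adenosine deaminases in mouse and human brain, had their highest mean in the cauda, where most of the cluster had it in the testis. miR-376a-3p had 9.60, 5.91 and 25.0 CPM in TESTIS-R and 2.23 and 13.1 CPM in TESTIS-NR. The caput had 1.71, 2.38 and 3.05 CPM in R and 1.41 and 1.49 CPM in NR, and the cauda 29.4, 10.8 and 26.2 CPM in R and 5.01, 4.07 and 11.01 CPM in NR. Caput lay below cauda without overlap, with a log2 difference of -2.78 ± 0.44 (edgeR adjusted p = 0.0012), while testis and cauda overlapped.

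miR-376b-3p had 2.74, 5.91 and 8.67 CPM in TESTIS-R and 0.495 and 2.58 CPM in TESTIS-NR, 0.911, 1.67 and 1.81 CPM in CAPUT-R and 0.235 and 0.992 CPM in CAPUT-NR, and 17.1, 7.39 and 18.7 CPM in CAUDA-R and 0.859, 1.86 and 6.605 CPM in CAUDA-NR. Its log2 difference between caput and cauda was -2.91 ± 0.66, the widest of the 30 members tested (edgeR adjusted p = 0.00849), and that of miR-376c-3p was -2.17 ± 0.47 (edgeR adjusted p = 0.00681). These mature sequences are nearly identical between the paralogs, so reads could have been split among the entries by the authors' counting. A new entry named after human miR-376a-3p held more reads than the mouse-named one: its mean was 32.1 ± 19.2 CPM in TESTIS-R, 21.0 ± 2.74 in TESTIS-NR, 11.7 ± 3.91 in CAPUT-R, 13.3 ± 1.74 in CAPUT-NR, 50.4 ± 20.5 in CAUDA-R and 37.1 ± 3.62 in CAUDA-NR. It too was highest in the cauda, and its log2 difference between caput and cauda was -1.83 ± 0.31 (edgeR adjusted p = 0.0019).

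Within the cluster, the group between Meg3 and Rtl1 and the Mirg run had median differences between tissues in the same directions. Between testis and caput, 6 of the 6 tested members of the first group were called higher in the testis, with a median log2 difference of 2.14. So were 16 of 25 in the Mirg run, with a median of 2.10, and 23.8% of all miRNAs. Between caput and cauda 4 of 6 and 15 of 24 were called lower in the caput, with medians of -0.95 and -1.19, against 12.9% of all miRNAs. Between testis and cauda 4 of 6 in the first group were called higher in the testis and 0 lower, with a median of 1.06. In the Mirg run 10 of 27 were called higher and 3 lower, with a median of 0.81 and 18 above 0. Over all miRNAs 23.3% were called higher and 24.2% lower. Summed levels in the testis were 820.0 ± 202 CPM for the first group and 1232 ± 155.1 for the Mirg run (SD, n = 5). In the caput the sums were 206.4 ± 38.9 and 337.4 ± 47.7 CPM (n = 5), and in the cauda 452 ± 113 and 730.4 ± 95.6 CPM (n = 6). The members lower in the testis than in the cauda were in the Mirg run, and a difference between the groups of members was not tested.

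Seasons were compared within each tissue, as the study did. In the testis 0 of the 29 members that passed the filter were called, and 0% of all miRNAs tested. At an unadjusted p under 0.05 there was 1 member, against 36 of all miRNAs, or 7.26%. With DESeq2 0 members were called, against 3.4% of all miRNAs with an adjusted p. The R and NR libraries did not overlap for 3 members higher in R and for 4 lower, where 10.7% and 15.3% of all miRNAs did so.

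The member with an unadjusted p under 0.05 was miR-381-3p, from the middle of the Mirg run. It had 12.3, 13.7 and 11.8 CPM in TESTIS-R against 45.8 and 41.0 CPM in TESTIS-NR, a log2 difference of -1.52 ± 0.44 (edgeR adjusted p = 0.435). The lowest NR library had about 3 times the level of the highest R library, yet with n = 2 in NR the difference did not pass. The members of at least 10 CPM with the next smallest p were miR-136-5p, miR-323-3p and miR-487b-3p. miR-136-5p lay higher in R, with the values above and a log2 difference of 1.37 ± 0.53, and so did miR-323-3p, at 0.93 ± 0.55 (edgeR adjusted p = 0.644 and 0.726). miR-487b-3p had 2.74, 11.7 and 9.02 CPM in TESTIS-R against 18.8 and 20.8 CPM in TESTIS-NR, a log2 difference of -1.09 ± 0.79 (edgeR adjusted p = 0.812). In each of these the R and NR libraries did not overlap. Without TESTIS-NR 3 the count of members called was 0 as well.

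In the caput 0 of 30 members were called, and 0 of the 534 miRNAs tested, or 0%, with 0 members and 24 miRNAs, or 4.49%, at an unadjusted p under 0.05. With DESeq2 0 members were called, against 1.52% of all miRNAs. The libraries did not overlap for 2 members higher in R, against 15% of all miRNAs, and 5 lower, against 9.18%. miR-136-3p had 7.06, 19.4 and 16.1 CPM in CAPUT-R against 21.1 and 20.8 CPM in CAPUT-NR, a log2 difference of -0.62 ± 0.56 (edgeR adjusted p = 0.918). miR-369-3p had 12.3, 25.8 and 26.5 CPM in CAPUT-R against 27.6 and 28.9 CPM in CAPUT-NR, a log2 difference of -0.45 ± 0.49 (edgeR adjusted p = 0.945). Both lay lower in R without overlap, while miR-134-5p and miR-381-3p, with log2 differences of -0.29 ± 0.34 and -0.38 ± 0.45, overlapped. That of miR-381-3p turned to 0.08 without CAPUT-NR 1.

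In the cauda 0 of 30 members were called, while 14 of the 455 miRNAs tested were, or 3.08%. Leaving out 1 library gave 0 to 24 calls over all miRNAs, and 1 fit of all libraries or a replicate block 0. At an unadjusted p under 0.05 there were 7 members and 75 of all miRNAs, or 16.5%, and with 1 library left out 3 to 9 members. The R libraries lay below the NR libraries with no overlap for 11 of the 30, where 15.8% of all miRNAs did so, and above them for 2, where 14.1% did. DESeq2, the study's own tool, called 3 members in the cauda, miR-323-3p and miR-376a-3p as higher in R and miR-134-5p as lower, with adjusted p of 0.0100, 0.0492 and 0.0376. These were 3 of 35 members with an adjusted p in that fit, where 8.86% of all miRNAs were called.

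miR-323-3p had 33.9, 22.0 and 31.1 CPM in CAUDA-R against 6.44, 7.07 and 14.7 CPM in CAUDA-NR, a log2 difference of 1.67 ± 0.41 (edgeR adjusted p = 0.117). The highest NR value was that of CAUDA-NR 3, and without this library the log2 difference was 2.15 and the member passed (edgeR adjusted p = 0.0343). In the other tissues its R libraries also lay above its NR libraries, at 75.7, 79.9 and 105 against 36.2 and 67.7 CPM in the testis and 5.47, 4.996 and 11.1 against 3.88 and 3.47 CPM in the caput, with log2 differences of 0.93 ± 0.55 and 0.89 ± 0.55 that did not pass (edgeR adjusted p = 0.726 and 0.784). A new entry named for the related sheep miR-323c was among the 14 miRNAs called in the cauda, with 9.87 ± 2.86 CPM in CAUDA-R and 2.40 ± 0.589 CPM in CAUDA-NR (SD, n = 3 each) and a log2 difference of 2.08 ± 0.35 (edgeR adjusted p = 0.0493). Of 6 fits with 1 library left out this call held in 1, and it was lost with a replicate block (edgeR adjusted p = 0.33) and in 1 fit of all libraries (0.321).

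miR-134-5p was lower in R, with 64.9, 56.4 and 59.2 CPM in CAUDA-R against 88.3, 89.0 and 88.7 CPM in CAUDA-NR, a log2 difference of -0.50 ± 0.16 (edgeR adjusted p = 0.193). The NR libraries were nearly equal and all stood above the R libraries. miR-299a-3p and its near copy had 18.6, 20.9 and 21.5 CPM in CAUDA-R against 47.1, 48.7 and 27.9 CPM in CAUDA-NR, a log2 difference of -0.95 ± 0.28 (edgeR adjusted p = 0.182). miR-381-3p lay the same way, at 15.2, 20.3 and 20.4 CPM in CAUDA-R against 46.1, 27.6 and 32.3 CPM in CAUDA-NR, with a log2 difference of -0.85 ± 0.30 (edgeR adjusted p = 0.25). The 3p arms of miR-376a and miR-376b, with values above, had log2 differences of 1.76 ± 0.55 and 2.25 ± 0.82 (edgeR adjusted p = 0.193 and 0.25), and CAUDA-R 2 had the lowest R value in both.

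**Figure D4:**
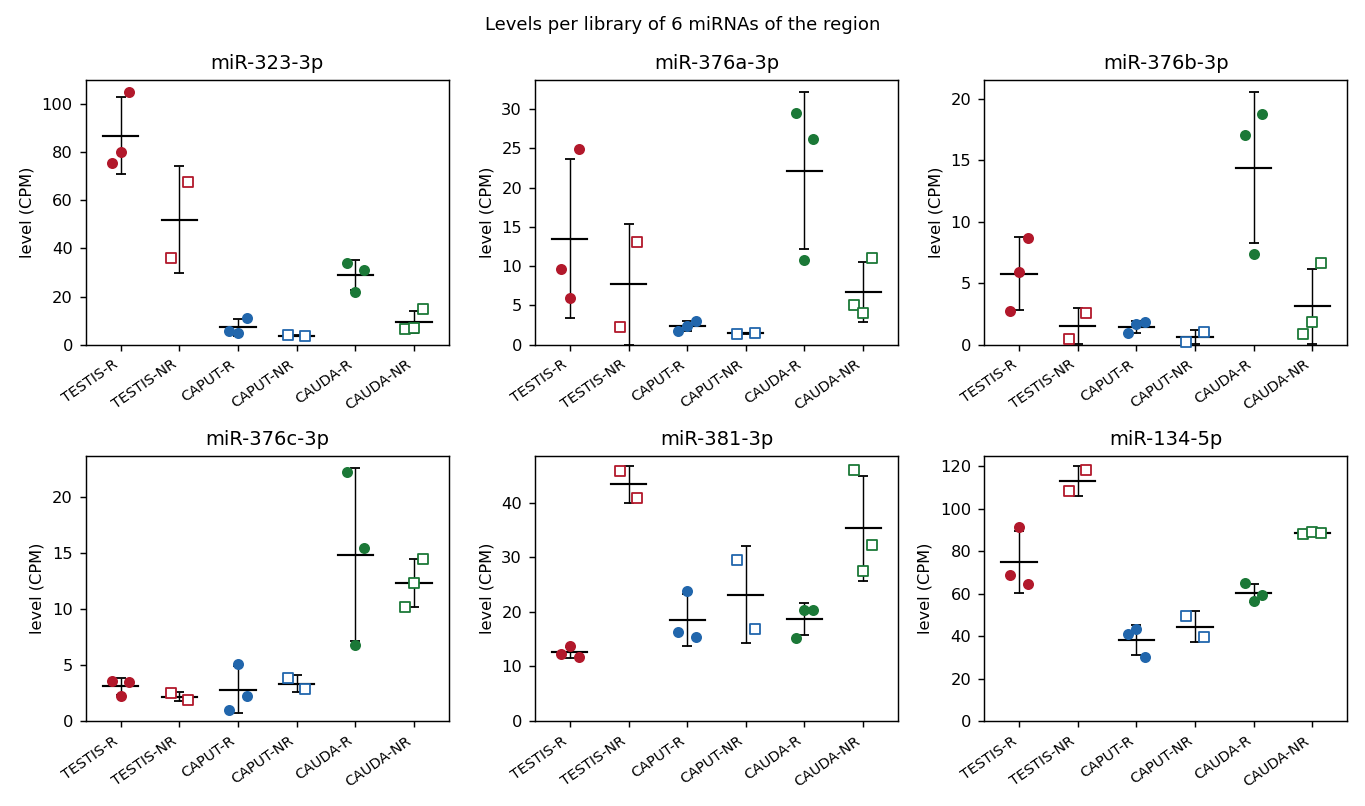
Levels in CPM (vertical axes, linear from 0) of miR-323-3p, miR-376a-3p, miR-376b-3p, miR-376c-3p, miR-381-3p and miR-134-5p in each library by tissue and season, with mean ± SD. Filled circles are R and open squares NR libraries: miR-323-3p lies higher in R in each tissue and miR-381-3p lower in R in testis and cauda, and the 3 miR-376 arms are highest in CAUDA-R.

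Whether a season change differed between tissues was tested as an interaction. Of 34 members tested between testis and caput, 37 between testis and cauda and 33 between caput and cauda, 0 were called in each, and 0% of the 677, 713 and 620 miRNAs tested. At an unadjusted p under 0.05 there were 0, 1 and 0 members, where 3.99%, 8.7% and 5.65% of all miRNAs stood. With DESeq2 0 members were called in each, against 2.14%, 2.47% and 2.33% of all miRNAs. With 2 or 3 libraries a group, a miss of the threshold does not show that the seasons had equal levels.

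Other miRNAs moved with season in the same libraries, in both directions. Leukocyte miRNAs summed to 2104 to 5236 CPM in CAUDA-R and 3537 to 10083 CPM in CAUDA-NR, which overlapped. Mesenchymal miRNAs (miR-199 and miR-214, 6 entries) summed to 11096 to 12998 CPM in CAUDA-R and 16432 to 19485 CPM in CAUDA-NR. Endothelial miRNAs (miR-126, 2 entries) were lower in R there too, at 18285 to 23107 CPM against 24594 to 35833 CPM. Smooth muscle miRNAs went the other way, at 28880 to 38987 CPM in CAUDA-R and 21634 to 28804 CPM in CAUDA-NR. In the testis the mesenchymal sum was 4877 to 6083 CPM in R and 6721 to 10141 CPM in NR, and the skeletal muscle sum 66.0 to 76.6 CPM in R and 159 to 874 CPM in NR. None of the entries in these lists passed in any season comparison in edgeR, miR-1a-1-5p and miR-1a-2-5p were at 0 in both testis groups and miR-146a-3p in TESTIS-R. Their part in the season values of the cluster was not tested.

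For 4 hairpins both arms reached 10 CPM in some group, and the dominant arm was the same in all 16 libraries. The 5p arm held 73.5% to 92.0% of the counts of miR-136 and 80.0% to 93.1% of those of miR-382, but 3.49% to 14.99% of those of miR-127 and 2.39% to 21.7% of those of miR-369. The 5p share of miR-369 was 17.9% ± 3.34 in CAPUT-R and 13.6% ± 2.19 in CAPUT-NR, with lower means in the other groups, 7.40% ± 4.95 in TESTIS-R, 8.19% ± 1.58 in TESTIS-NR, 10.52% ± 3.35 in CAUDA-R and 8.99% ± 2.84 in CAUDA-NR. That of miR-136 was 87.7% ± 3.47 in TESTIS-R and 79.7% ± 8.49 in TESTIS-NR, 81.8% ± 2.23 in CAPUT-R and 75.9% ± 3.38 in CAPUT-NR, and 87.9% ± 5.23 in CAUDA-R and 84.6% ± 0.734 in CAUDA-NR. In the caput the R libraries lay above the NR libraries without overlap for this share. The share of miR-369 did so too, at 15.22% to 21.7% in R against 12.1% to 15.16% in NR. That of miR-127 lay below, at 3.49% to 4.72% in R against 6.32% to 7.30% in NR, and that of miR-382 overlapped. These shares were not tested, and CAPUT-NR had 2 libraries. The dominant arms, miR-136-5p, miR-382-5p, miR-127-3p and miR-369-3p, are those among the 10 most abundant members.

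**Figure D5:**
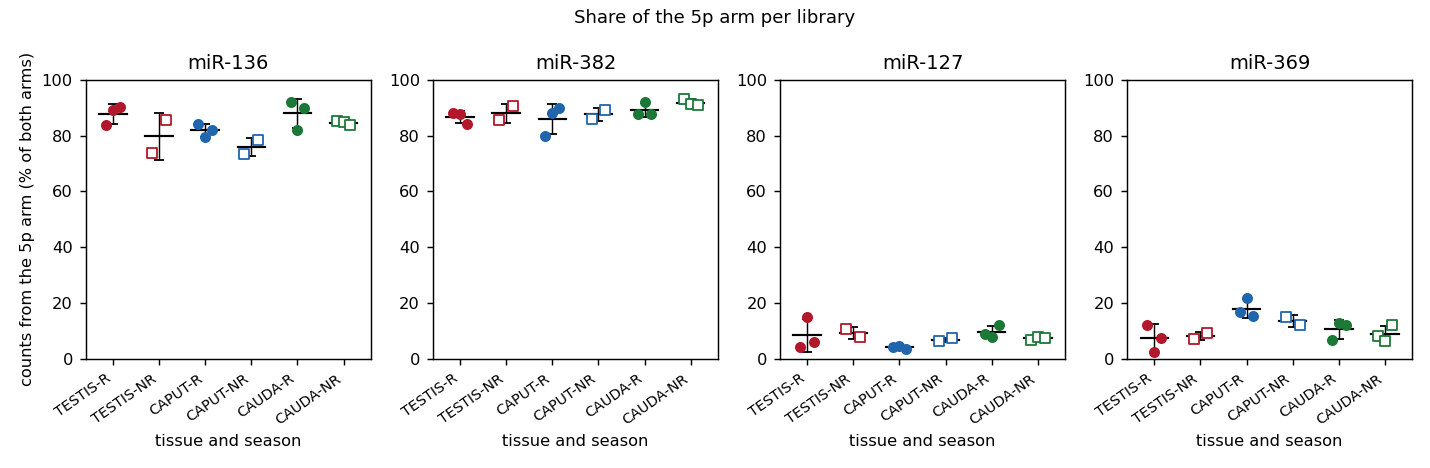
Share of the counts of a hairpin that came from its 5p arm, in percent of both arms (vertical axes, 0 to 100), for miR-136, miR-382, miR-127 and miR-369 in each library by tissue and season, with mean ± SD. Filled circles are R and open squares NR libraries: the 5p arm holds at least 73.5% of miR-136 and miR-382 and at most 21.7% of miR-127 and miR-369 in all 16 libraries.

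Single libraries stood out within 2 groups across the cluster. Among the 13 members with a mean of at least 10 CPM in CAPUT-R, the library CAPUT-R 2 was the highest of the 3 for 12. Among the 17 such members of CAUDA-R, the library CAUDA-R 2 was the lowest for 13. Shares over all miRNAs were not taken, so these counts describe the members only. The counts of members called above changed by less than 1.5 times without CAPUT-R 2 or CAUDA-R 2.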

How the data were processed

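Small RNA libraries (single reads of 50 nt, per the labels' design text) were sequenced from testis, caput and cauda. The authors deposited 1 table of raw miRNA counts, with 1210 entries, 18 columns and no normalization. Tools named in the submitters' processing notes are featureCounts and bedtools. The aligner, the miRNA reference and the build were not given in the sources used here. Of the columns, 2 equalled the mean of their group and were left out, a choice known from earlier work on these data.

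The members and lists were chosen with earlier results of these data known. Counts were tested with edgeR 4.0.16 (quasi-likelihood test after TMM scaling, with its own low-count filter) in R 4.3.3, with Benjamini-Hochberg adjusted p-values over all miRNAs of a fit and calls at 0.05. Seasons were compared within a tissue, tissues with season as a covariate, and season by tissue as an interaction, each with the libraries concerned alone. Levels are CPM of the 16 measured libraries after joint TMM scaling (factors 0.595 to 1.41), as mean ± SD, and differences are log2 ± SE. Named were the 10 most abundant members, the called members of at least 10 CPM (up to 12 per direction and comparison), or the 4 smallest p where none was called, and hairpins with both arms at 10 CPM; the others named were chosen after their values were seen. The fits were tested on simulated data with known changes. Alternatives were DESeq2 1.42.0, other scalings, all entries kept, a fold threshold (log2 of 1), a replicate block, 1 fit of all libraries, the averaged columns kept, 1 season alone and each library left out. Replicates were separate animals only as far as the labels' word biological goes. The gene, piRNA and piRNA cluster tables were not used here, and mature sequences are not printed.

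Replicate numbers were checked for pairing by the correlation of deviations from group means. In no comparison did every pair exceed 0.1 with at least 3 pairs, so the numbers were not taken to pair samples.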

Additional observations from a re-analysis of the deposited data

Results flagged for a closer look

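miR-1197-3p, a low member of the Mirg run, went opposite ways between seasons in the segments of the epididymis, with no overlap of CPM in either. It had 2, 2 and 2 counts in CAPUT-R and 0 and 0 in CAPUT-NR, against 0, 1 and 2 counts in CAUDA-R and 2, 6 and 5 in CAUDA-NR. Its highest group mean in these segments was 0.502 CPM, and in CPM the CAUDA-R libraries lay below the CAUDA-NR libraries. CAUDA-R 3 and CAUDA-NR 1 both had 2 counts, so their order in CPM rested on library scaling. It did not pass the filter on low counts for the interaction of these segments, so the difference was not tested, and every group was within a few counts of the floor of 3.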

How the results depend on the processing

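The counts of members called between seasons in the testis and caput, and in the 3 interactions, stayed at 0 under every alternative run, leave-outs included. In the cauda DESeq2 called 3 members, and leaving out 1 library gave 0 to 1. For caput minus cauda the 19 became 12 with no filter, 6 with a replicate block, 11 with all libraries in 1 fit, 7 with R libraries alone, 3 with NR libraries alone and 11 to 20 with 1 library left out. For testis minus caput the 22 became 0 with NR libraries alone and 21 to 24 with 1 library left out. For testis minus cauda the 17 became 8 with no filter, 4 with a replicate block, 11 with R libraries alone, 3 with NR libraries alone and 12 to 19 with 1 library left out. Fewer libraries, or more miRNAs tested, enter several of these, and the cause of the changes was not tested. Of 876 values for named members under an alternative, 764 kept their direction and side of the threshold, 108 lost the call, 3 gained one and 1, miR-381-3p between seasons in the caput, turned (range with 1 library left out -0.785 to 0.0759, the highest without CAPUT-NR 1). With library totals the log2 ratio of the summed level was 0.24 for testis R over NR, 2.55 for testis over caput and -1.48 for caput over cauda. A lone library in a group was assumed to vary like the others of the fit. Members under 1 CPM, and testis libraries with fewer counts, limit what could be detected.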

Other observations

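An entry outside the mouse-named members, named for human miR-380-3p under the new-entry prefix, had 22408 counts in CAUDA-R 3 and 25578 in CAUDA-NR 3, and 0 in each of the other 14 libraries. These were 0.283% and 0.387% of the miRNA counts of those libraries, more than the whole cluster of mouse-named members held there, 0.129% in each. Another 3 entries had counts in these libraries and no other. The mouse-named 5p arm, miR-380-5p, peaked at 8.73 CPM.

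The hairpins annotated in the tree shrew between DLK1 and DIO3 also included MIR432, MIR656 and MIR1247, whose numbers were not among those used here to find members.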
